A study of Homo sapiens with 4 samples.

Results

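The 9 genes MYC, MAX, MXI1, MXD1, MXD3, MXD4, MNT, MGA and MLX form the core of the MYC and MAX network. They were chosen by gene name from the 28482 genes in the deposited count table, and each name matched 1 row. RNA was sequenced from K562/G01 cells, an imatinib-resistant derivative of K562, an established chronic myeloid leukemia line that carries the BCR-ABL1 fusion kinase. The 4 groups were cells with a lentiviral hairpin against TCF7 and imatinib, knockdown cells without the drug, cells with a scramble hairpin and imatinib, and scramble cells without it. Imatinib, an inhibitor of BCR-ABL1, was given at 1 µM for 48 hours. Every group thus shared the resistant line and a lentiviral hairpin, and each had 1 library. Whether each came from its own infection or culture is not stated in the labels.

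MYC encodes a basic helix-loop-helix leucine zipper protein that binds DNA only as a dimer with MAX, at E-box sites, and there activates genes of ribosome production, metabolism and the cell cycle. The MXD proteins (MXD1, MXI1, MXD3 and MXD4) and MNT compete for MAX and bring the SIN3 and histone deacetylase corepressor to the same sites. MGA also dimerises with MAX and is the scaffold of a repressive Polycomb complex, while MLX is the partner of the glucose-sensing factors MondoA (MLXIP) and ChREBP (MLXIPL) and also pairs with some MXD proteins and MNT. In chronic myeloid leukemia MYC lies downstream of BCR-ABL1, and it is a textbook target of Wnt signalling, to which TCF7, a DNA-binding factor that takes up beta-catenin, belongs.

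Promoters of 3 members hold the canonical E-box CACGTG, the site these proteins bind, and are shown for that reason. The sequences are from RefSeq on GRCh38.p14, run 5′ to 3′ on the strand of the gene from 250 bases before to 50 bases after its start, and have the E-box in capitals.
MXD4 (chr4:2262060-2262359, minus strand): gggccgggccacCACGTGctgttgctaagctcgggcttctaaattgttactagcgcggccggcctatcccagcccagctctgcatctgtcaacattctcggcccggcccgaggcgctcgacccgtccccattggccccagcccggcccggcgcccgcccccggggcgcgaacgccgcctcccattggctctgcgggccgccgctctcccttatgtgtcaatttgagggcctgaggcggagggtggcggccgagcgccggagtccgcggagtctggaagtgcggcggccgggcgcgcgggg
MNT (chr17:2401011-2401310, minus strand): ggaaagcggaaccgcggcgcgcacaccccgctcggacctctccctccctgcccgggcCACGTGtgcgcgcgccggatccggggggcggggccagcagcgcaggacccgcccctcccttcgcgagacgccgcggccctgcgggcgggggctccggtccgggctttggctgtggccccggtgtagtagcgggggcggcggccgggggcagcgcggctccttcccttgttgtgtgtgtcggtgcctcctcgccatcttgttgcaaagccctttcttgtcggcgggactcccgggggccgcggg
MLX (chr17:42566850-42567149, plus strand): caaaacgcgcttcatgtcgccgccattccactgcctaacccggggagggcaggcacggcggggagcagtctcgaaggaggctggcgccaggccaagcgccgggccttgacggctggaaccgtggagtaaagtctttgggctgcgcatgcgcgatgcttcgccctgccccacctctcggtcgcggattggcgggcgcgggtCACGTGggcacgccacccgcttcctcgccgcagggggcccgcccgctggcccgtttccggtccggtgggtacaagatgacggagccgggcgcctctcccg
The first base of the E-box lies 238 bases before the start of MXD4, 193 before that of MNT and 50 before that of MLX. Sequences were at hand for 13 promoters of 8 of the members. There was none for MYC, whose promoter was thus not searched for either motif. Of the 13 promoters 3 held the E-box, against 7.26% of all 35116 promoters. CACGTG reads the same on both strands. The TCF/LEF motif CTTTGAT, searched on both strands, was in 0 of the 13 promoters and in 2.62% of all. A match of letters is a description of the window and not a measured site.

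Totals of the deposited counts lay between 30634832 and 34095585 per library. Of the 28482 genes, 13296 had at least 1 count in each 1000000 counts of the library (1 CPM) in 2 or more libraries and were tested, all 9 members among them. The targeted gene TCF7 had 2.55 CPM in the knockdown library against 10.2 in the scramble library, and under imatinib 3.69 in the knockdown library against 10.8 in the scramble library. TCF7 fell with knockdown (log2 fold change -1.75, SE 0.206, edgeR adjusted p = 1.51e-07). All 12 erythroid markers of K562 cells in the list were measurable, among them GATA1 at 85.9 to 133 CPM. With imatinib 3 of these 12 markers rose and 5 fell, where 20.9% of all tested genes were called, and with knockdown 0 rose and 1, LMO2, fell, where 7.14% were. With the offsets for GC content described below, 1 marker was called higher and 4 lower for imatinib and 0 higher and 2 lower for knockdown; the part of these shifts in the results below was not tested, and in bulk RNA fewer cells of a type and less RNA per cell cannot be told apart. Of 10 markers of other blood cells in the table, PTPRC (171 to 184 CPM), LYZ (35.9 to 44.1 CPM) and CD3D (13.96 to 20.8 CPM) passed the filter and 0 were called for either factor, while CD3E and CD79A stayed below 0.1 CPM. With the offsets 1 of the 3 was called lower for imatinib and 0 were called for knockdown.

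With 1 library a group, differences between single libraries lack a replicate check. Each is given below as a log2 ratio of normalised CPM with a 95% interval that covers counting error only. Testing was limited to the 2 main effects of 1 additive edgeR fit, in which each factor sets 2 libraries against the other 2. Its error is how far the change for 1 factor differs between the 2 states of the other, mostly pooled over genes. Its p-values thus rest on no repeat library of any group and concern these 4 libraries only. The words rose and fell are kept for genes with an adjusted p under 0.05.

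On GRCh38 with GENCODE 29 the genes span chr4:2247432-2262294 (MXD4), chr17:2384060-2401118 (MNT), chr17:42567068-42573239 (MLX), chr8:127735434-127741434 (MYC), chr14:65006174-65102695 (MAX), chr10:110207605-110287365 (MXI1), chr2:69897688-69942945 (MXD1), chr5:177301461-177312757 (MXD3) and chr15:41621224-41773081 (MGA).

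MYC was by far the most abundant transcript of the network per unit of length. On the deposited FPKM scale, which divides counts by the library total and by exon length, the level of MYC lay between 113.06 and 140.6 over the 4 libraries, with a mean of 126.4, and it ranked between the 171st and the 232nd of the 13296 tested genes. MGA came next with a mean FPKM of 17.2 (15.3 to 19.4), followed by MAX with 15.7 (14.8 to 17.5) and MLX with 12.8 (11.98 to 13.4). The antagonists were lower, with a mean FPKM of 6.88 for MXD1 (6.30 to 7.46), 3.77 for MXI1 (3.30 to 4.36), 2.65 for MNT (2.37 to 2.89), 2.13 for MXD4 (1.84 to 2.54) and 0.948 for MXD3 (0.878 to 1.00). In this order the ranges of MGA and MAX overlapped, as did those of MNT and MXD4, and every other neighbouring pair was separate. These ranges cover the spread between libraries and not the choice of length. The length used counts all annotated exons, 17651 bases for MGA, 4430 for MAX and 4259 for MLX. Their longest transcripts have 14439, 3155 and 2586 bases. MGA thus loses the smallest part of its length, and the order of MGA, MAX and MLX depends on the length used. For the other members the order on that length was not examined. The FPKM of MXD3 is the least certain, since 18.0% of its exon bases are shared with RAB24 on the same strand and 22.5% with PRELID1 on the opposite strand. Likewise 18.1% of the exon bases of MLX lie opposite PSMC3IP and 12.2% of those of MNT opposite an antisense gene, and how reads in such stretches were counted is not given in the sources used here.

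Summed over the 5 antagonists MXI1, MXD1, MXD3, MXD4 and MNT, the FPKM level in knockdown cells was 17.0 with imatinib and 16.9 without. In scramble cells the sum was 15.97 with imatinib and 15.6 without. The level of MYC was 8.29 times this sum with imatinib against 6.76 times without in knockdown cells, and 8.61 times with imatinib against 7.23 times without in scramble cells. Both ratios with imatinib lay above both without, as a description of 4 libraries with no test.

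**Figure D1:**
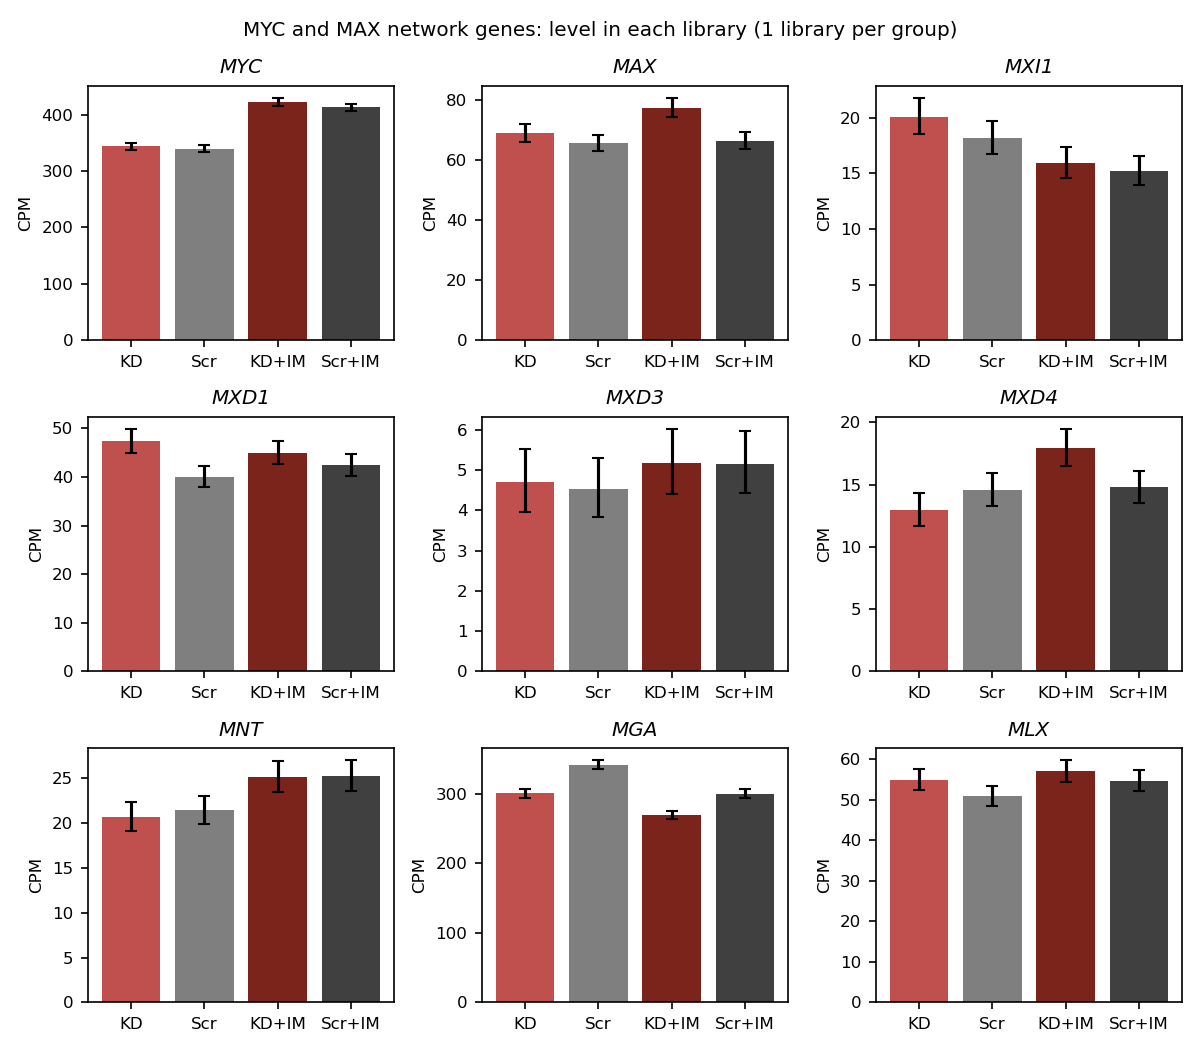
Level of each of the 9 network genes in each library, in CPM of the deposited counts, each panel with its own axis from 0. KD is TCF7 knockdown, Scr scramble and IM imatinib, and error bars are exact 95% Poisson intervals of 1 library; MYC stands at 413 and 422 CPM with imatinib, above 339 and 344 CPM without, and MGA is lowest in KD+IM at 269 CPM.

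The knockdown comparison asks whether the network differs when TCF7 is reduced. No member of the network rose or fell with knockdown: edgeR called 0 of 9, where 7.14% of all 13296 genes were called (3.8% higher and 3.34% lower), and DESeq2, which called 2.05% of all genes, also called 0 of 9. With shares of all genes this low, 0 of 9 does not set the members apart from other genes. At an unadjusted p under 0.05 edgeR had 1 member, MGA, against 19.4% of all genes, and DESeq2 had 0, against 8.96%. MYC, the activator of the network, had 344 CPM in the knockdown library against 339 in the scramble library, and under imatinib 422 in the knockdown library against 413 in the scramble library. The knockdown libraries were the higher ones in both states, by a log2 ratio of 0.03 without imatinib (counting interval -0.01 to 0.07) and 0.05 under imatinib (0.02 to 0.09), but the ratio under imatinib was -0.03 once a trend over GC content and length was taken out. The fitted change of MYC was 0.04 on the log2 scale (SE 0.069, interval -0.10 to 0.18, edgeR adjusted p = 0.824).

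MGA, the Polycomb scaffold, had 301 CPM in the knockdown library against 342 in the scramble library, and under imatinib 269 CPM against 301 in the same order. The log2 ratios were -0.18 (-0.22 to -0.14) and -0.14 (-0.18 to -0.10), both beyond counting error, and with the trend over GC content and length removed they were -0.12 and -0.01. The fitted change of -0.16 (SE 0.0692, interval -0.30 to -0.02) did not pass the test (edgeR adjusted p = 0.187). With the trend entered as offsets in the fit, a correction described below, it was -0.07 (adjusted p = 0.556), and with 1 library left out, in fits without a term for imatinib, it lay between -0.05 (untreated scramble library left out) and -0.26 (imatinib-treated scramble library left out).

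MAX, the shared dimer partner, had 68.8 CPM in the knockdown library against 65.5 in the scramble library, and 77.4 against 66.4 CPM in the same order under imatinib. Its log2 ratios were 0.08 (-0.01 to 0.17) without and 0.24 (0.16 to 0.32) under imatinib, and the highest of the 4 levels was that of the knockdown library with imatinib. The fitted change of MAX was 0.16 (SE 0.0834, edgeR adjusted p = 0.296). MLX, the partner of the MondoA branch, had log2 ratios of 0.12 (0.02 to 0.22) and 0.08 (-0.01 to 0.18) and a fitted change of 0.10 (adjusted p = 0.602).

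Among the MXD repressors, MXD1 had 47.4 CPM in the knockdown library against 40.0 in the scramble library, and 45.0 against 42.4 CPM under imatinib. Its log2 ratio was 0.25 (0.14 to 0.36) without and 0.11 (-0.001 to 0.21) under imatinib, with a fitted change of 0.18 (SE 0.0949, edgeR adjusted p = 0.305). MXI1 had log2 ratios of 0.15 and 0.08, MXD3 0.06 and 0.02, and MNT -0.04 and 0.01, and all 6 counting intervals included 0. MXD3 had only 144 to 176 counts per library, and the interval of its fitted change ran from -0.42 to 0.50.

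MXD4 was the member whose knockdown ratio differed most between the imatinib states. It had 13.0 CPM in the knockdown library against 14.6 in the scramble library, and under imatinib 17.9 CPM against 14.8 in the same order. The knockdown library was thus the lowest of the 4 without the drug and the highest with it, and the scramble libraries lay between, an order that did not hold with the GC and length trend removed. Over the untreated scramble library the ratios were then -0.03 in the knockdown library with imatinib, -0.13 in the knockdown library without and -0.22 in the scramble library with imatinib. Without that correction, the log2 ratios were 0.30 (0.12 to 0.47) under imatinib and -0.16 (-0.36 to 0.03) without, a difference of 0.46 (counting interval 0.20 to 0.71), which cannot be tested with 1 library per group. In size that difference lay above 82.7% of those of all tested genes, whose median size was 0.17. The difference of MAX was 0.16 (0.04 to 0.28), and the other 7 members had differences whose counting intervals included 0.

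**Figure D2:**
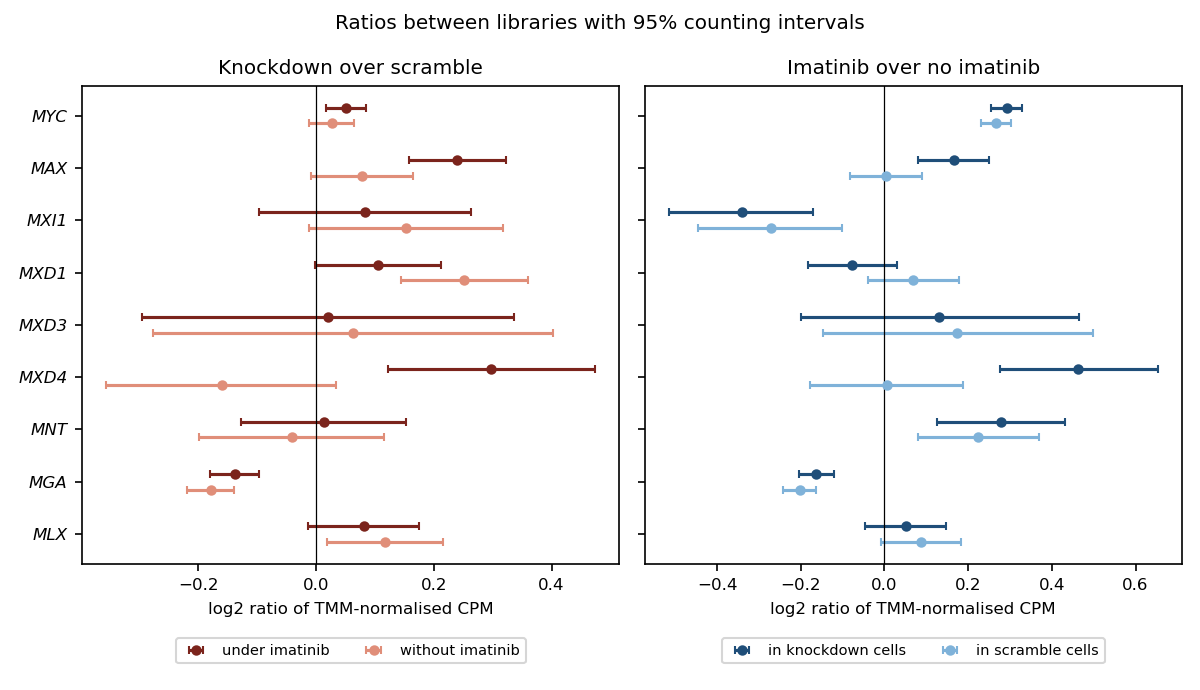
Log2 ratios of TMM-normalised CPM between libraries for the 9 network genes, knockdown over scramble on the left and imatinib over no imatinib on the right, with 95% counting intervals. MYC lies near 0 for knockdown and at 0.29 and 0.27 for imatinib, and MXD4 and MAX are farther to the right where knockdown and imatinib were combined.

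The imatinib comparison asks whether the drug moves the network in cells that resist it. Of the 9 members 1 rose, MYC, and 0 fell, where 20.9% of all tested genes were called (13.8% higher and 7.08% lower), so the share of members called was no larger than that of all genes. MYC had 422 CPM with imatinib against 344 without in knockdown cells, and 413 CPM with imatinib against 339 without in scramble cells. Both libraries with imatinib were above both without. The log2 ratios were 0.29 (0.26 to 0.33) in knockdown and 0.27 (0.23 to 0.30) in scramble cells, and the fitted change was 0.28 (SE 0.0687, interval 0.14 to 0.42, edgeR adjusted p = 0.00362), higher in 2 of 2 pairs. DESeq2, which called 7.54% of all genes, also called MYC (log2 fold change 0.27, adjusted p = 0.0142) and no other member. For MXD3 DESeq2 gave no adjusted p (unadjusted p = 0.674). An edgeR fit of all 4 libraries without a term for knockdown did not call MYC (adjusted p = 0.125). That fit called 0 of all 13296 tested genes, so it says little about MYC. When 1 library was left out of such a fit, the change of MYC stayed between 0.25 and 0.31.

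The imatinib ratios of all genes went with GC content, and the rise of MYC was not called once that was allowed for. Median GC content was 60.2% over the genes called higher with imatinib, 39.7% over those called lower and 47.3% over all tested genes. The longest annotated transcript of MYC has 53.9% GC. With a smooth trend of each library over GC content and transcript length entered as offsets, the fitted change of MYC was 0.12 (SE 0.0612, edgeR adjusted p = 0.320), and 0 of 9 members were called for either factor, where 4.35% of all genes were called for imatinib and 12.3% for knockdown. With the trend taken out of each ratio, MYC had 0.07 in knockdown and 0.13 in scramble cells.

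Among the other members the 3 richest in GC had higher levels with imatinib in the fit, and MXI1 and MGA, of the 3 poorest, had lower ones. MNT (61.4% GC), which represses as a dimer with MAX, had 25.1 CPM with imatinib against 20.7 without in knockdown cells, and 25.3 CPM with imatinib against 21.4 without in scramble cells. Its levels with the drug were above those without, but its fitted change of 0.25 did not pass the test (SE 0.116, edgeR adjusted p = 0.120), and it was -0.16 with the offsets. MXD3 (61.3% GC) had a fitted change of 0.15 and MXD4 (57.6% GC) of 0.23, and with the offsets these were -0.25 and -0.04.

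MXI1 (43.7% GC), an MXD repressor, had 15.9 CPM with imatinib against 20.1 without in knockdown cells, and 15.2 CPM with imatinib against 18.2 without in scramble cells. Both levels with the drug lay below both without, and the log2 ratios were -0.34 (-0.51 to -0.17) and -0.27 (-0.44 to -0.10). The fitted change of -0.31 did not pass the test (SE 0.131, edgeR adjusted p = 0.0915), and it was -0.22 with the offsets (adjusted p = 0.351). MGA (42.0% GC) had a fitted change of -0.18 (SE 0.0692, edgeR adjusted p = 0.0560), which was -0.04 with the offsets. MAX, MLX and MXD1 had fitted changes of 0.08, 0.07 and -0.004, with adjusted p-values of 0.503, 0.618 and 0.981.

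**Figure D3:**
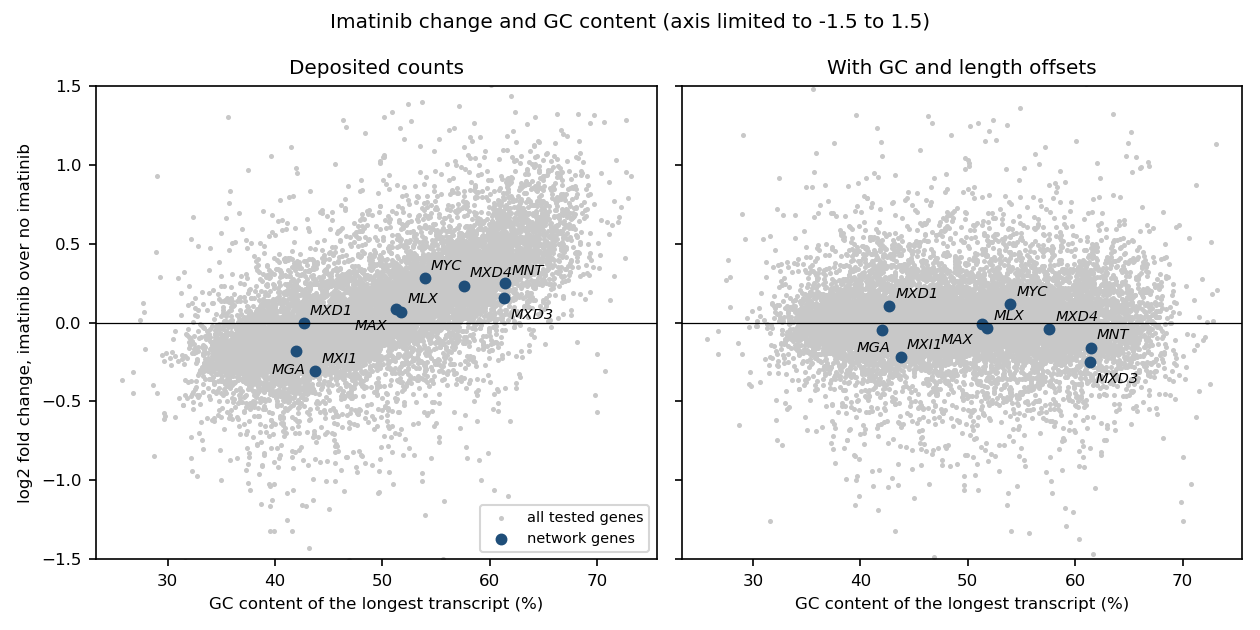
Fitted log2 fold change of imatinib over no imatinib against the GC content of the longest annotated transcript, for 13255 tested genes with an annotated sequence (grey) and the 9 network genes (blue), from the deposited counts on the left and with GC and length offsets on the right. On the left the network genes lie between MXI1 at -0.31 and MYC at 0.28, with MNT, MXD3 and MXD4 at the GC-rich end above 0; on the right MYC is at 0.12 and MXD3 and MNT, the members richest in GC, are below 0.

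As sizes, 0 of 9 members reached 1.5-fold in any pair of libraries. Over all tested genes 9.18% did so for knockdown without imatinib, 9.96% for knockdown under imatinib, 15.4% for imatinib in knockdown cells, 6.77% for imatinib in scramble cells and 17.8% for knockdown with imatinib over untreated scramble cells. The members whose counting interval left out 0 numbered 3 of 9 (47.2% of all genes), 4 of 9 (55%), 6 of 9 (65.3%), 4 of 9 (53.2%) and 8 of 9 (66.4%) in the same order of pairs. The median size of the fitted knockdown change was 0.10 over the members and 0.13 over all tested genes, and that of the imatinib change was 0.18 over the members and 0.19 over all tested genes. In the last pair, where both perturbations are combined, MYC had a log2 ratio of 0.32 (0.28 to 0.36), MAX 0.24 (0.16 to 0.33), MXD4 0.30 (0.13 to 0.48) and MGA -0.34 (-0.38 to -0.30). With the GC and length trend removed these ratios were 0.09 for MYC, 0.11 for MAX, -0.03 for MXD4 and -0.14 for MGA.

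PVT1, a long noncoding RNA gene next to MYC on chromosome 8, was measured beside it. PVT1 had 103 CPM with imatinib against 116 without in knockdown cells, and 107 CPM with imatinib against 117 without in scramble cells. Its levels with the drug were the lower ones in both backgrounds, where those of MYC were the higher ones. The fitted imatinib change of PVT1 was -0.17 (SE 0.0748, edgeR adjusted p = 0.111), and with the GC and length offsets PVT1 fell (-0.27, SE 0.0642, adjusted p = 0.00173). Its fitted knockdown change was -0.02 (adjusted p = 0.908).

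Likeness was measured as the distance between the 4 centred log2 CPM values over 8430 protein-coding genes whose mean reached 10 CPM. The genes closest to MYC were ARID3A (distance 0.014), AUP1 (0.0151) and TRAF4 (0.027). Their transcripts have 59.0%, 59.6% and 56.8% GC. The genes closest to MXD4, the member with the widest range over the libraries, were AP5S1 (0.0266), BCL7B (0.0319) and ADORA2B (0.0455). Their transcripts have 52.7%, 59.1% and 43.8% GC. These genes were picked for their likeness, so a highest level in the same library as MXD4 follows from the choice. With 4 points such a likeness is a description only.

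Genes around the network were read from 8 lists, which hold 123 different tested genes. For knockdown 5 of these rose and 6 fell, 8.94% against 7.14% of all genes, and with the offsets 8 rose and 10 fell, 14.6% against 12.3%. For imatinib 29 rose and 10 fell, 31.7% against 20.9% of all genes, and with the offsets 1 rose and 8 fell, 7.32% against 4.35%. Of all tested genes 3.8% rose and 3.34% fell with knockdown, and 13.8% rose and 7.08% fell with imatinib. The counts of each list below are to be read against these shares.

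Of 44 tested genes that MYC is known to activate, 1 rose and 2 fell with knockdown, with a median log2 fold change of -0.01 against 0.01 over all tested genes. CCND2, a D-type cyclin, fell with knockdown (log2 ratios -0.44 without and -0.64 under imatinib, edgeR adjusted p = 1.99e-06), and so did LDHA, lactate dehydrogenase (-0.34 and -0.62, adjusted p = 1.91e-05). RCC1, the nucleotide exchange factor of RAN, rose (0.21 and 0.35, adjusted p = 0.0189). With imatinib 10 rose and 4 fell, with a median of 0.04 against -0.004 over all tested genes. Those that rose included BOP1 (0.51 in knockdown and 0.37 in scramble cells, edgeR adjusted p = 6.74e-05) and PES1 (0.49 and 0.38, adjusted p = 0.000126), which act together in the assembly of the large ribosomal subunit. HSPE1, a mitochondrial chaperonin, fell (-0.89 and -0.17, adjusted p = 0.000269), as did LDHA (-0.53 and -0.25, adjusted p = 0.000222). With the offsets 0 of the 44 rose and 4 fell with imatinib, HSPE1 and LDHA among them, while BOP1 had -0.11 and PES1 0.14. For knockdown the offsets gave 1 called higher and 4 lower.

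Of genes that MYC is known to repress, 8 of 13 in the table were tested, and 1 rose and 2 fell with knockdown while 0 were called for imatinib. The most abundant, GADD45A, had an imatinib change of 0.11 (edgeR adjusted p = 0.430). NDRG1, also a gene of the hypoxia response, had 551 counts in the knockdown library against 1531 in the scramble library, and under imatinib 660 counts against 1543 in the same order. It fell with knockdown (log2 ratios -1.35 and -1.10, edgeR adjusted p = 2.25e-10), and HES1, a target of Notch signalling, fell as well (-0.32 and -0.58, adjusted p = 0.0423). CDKN1B, the cell cycle inhibitor p27, rose (0.46 and 0.25, adjusted p = 0.0285). The list's median knockdown change was -0.24 and its median imatinib change 0.15. With the offsets 0 were called higher and 1 lower for imatinib, and the median was 0.07.

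Of 7 tested targets of MondoA and MLX, 1 rose and 1 fell with each factor. TXNIP, an inhibitor of thioredoxin and glucose uptake and the best known MondoA target, rose with knockdown (0.44 without and 0.21 under imatinib, edgeR adjusted p = 0.00447). ASNS, asparagine synthetase, which the integrated stress response also controls, fell with knockdown (-0.88 and -0.89, adjusted p = 6.09e-09), and fell with imatinib as well (-0.24 in knockdown and -0.24 in scramble cells, adjusted p = 0.0478). FASN, the fatty acid synthase, rose with imatinib (0.49 in knockdown and 0.33 in scramble cells, edgeR adjusted p = 8.73e-05), but had -0.14 with the offsets. The list's median was -0.14 for knockdown and -0.004 for imatinib.

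Among the MYC paralogs and other E-box factors 4 of 5 in the table were tested and 0 were called for knockdown (median 0.06). MLXIP, the most abundant of them, had a knockdown change of 0.04 (edgeR adjusted p = 0.839). MLXIP, which encodes MondoA, rose with imatinib (0.26 and 0.18, edgeR adjusted p = 0.0250), as did USF2, a factor of the same class (0.74 and 0.31, adjusted p = 0.000965), and the list's median was 0.38. With the offsets 0 were called.

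The corepressor subunits that MXD proteins and MNT recruit had 16 tested genes, 0 called for knockdown (median -0.005), and 2 that rose and 2 that fell with imatinib (median -0.10). RBBP4, the most abundant, had a knockdown change of -0.01 (edgeR adjusted p = 0.952). SIN3B (0.51 and 0.12, edgeR adjusted p = 0.0183) was among those that rose, and HDAC2 (-0.26 and -0.16, adjusted p = 0.0266) and ARID4B (-0.27 and -0.16, adjusted p = 0.0317) fell. With the offsets 0 were called higher for imatinib, SIN3B included, and 1 was called lower. For knockdown the offsets gave 1 called higher and 0 lower.

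Of 11 tested partners of MGA in its Polycomb complex, 1, TFDP2, the dimer partner of E2F factors, rose with knockdown (0.36 without and 0.28 under imatinib, edgeR adjusted p = 0.00245; list median -0.02). With imatinib 3 rose, RING1, WDR5 and L3MBTL2, and 1, RYBP, fell (list median -0.12), and with the offsets 0 were called. Of 14 cofactors of MYC, coactivators except for ZBTB17, 0 were called for knockdown (median -0.002) and 5 rose with imatinib (median 0.11). They included HCFC1, the host cell factor (0.51 and 0.37, edgeR adjusted p = 2.53e-05), ZBTB17, the factor MIZ1 with which MYC represses (0.75 and 0.42, adjusted p = 0.000174), RUVBL2 (0.45 and 0.22, adjusted p = 0.00139) and KAT2A (0.40 and 0.25, adjusted p = 0.0155). EP400, the most abundant, had a knockdown change of -0.16 (edgeR adjusted p = 0.194). With the offsets 1 cofactor was called higher and 0 lower for each factor, with DMAP1 among those called higher.

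Of 19 tested genes of MYC protein turnover, 1 rose and 1 fell with knockdown (median -0.03), PPP2R5A, a regulatory subunit of the phosphatase PP2A (0.22 and 0.44, edgeR adjusted p = 0.0176), and USP28, a deubiquitinase that stabilises MYC (-0.19 and -0.46, adjusted p = 0.0440). With imatinib 6 rose and 2 fell (median -0.05). PLK1, a mitotic kinase (0.42 and 0.31, adjusted p = 0.000650) and AXIN1 (0.46 and 0.35, adjusted p = 0.00298) were among those that rose, and KIAA1524, which encodes the PP2A inhibitor CIP2A, fell (-0.40 and -0.17, adjusted p = 0.00862). With the offsets 0 were called higher and 1, STUB1, lower for imatinib. For knockdown the offsets gave 2 called higher and 3 lower.

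**Figure D4:**
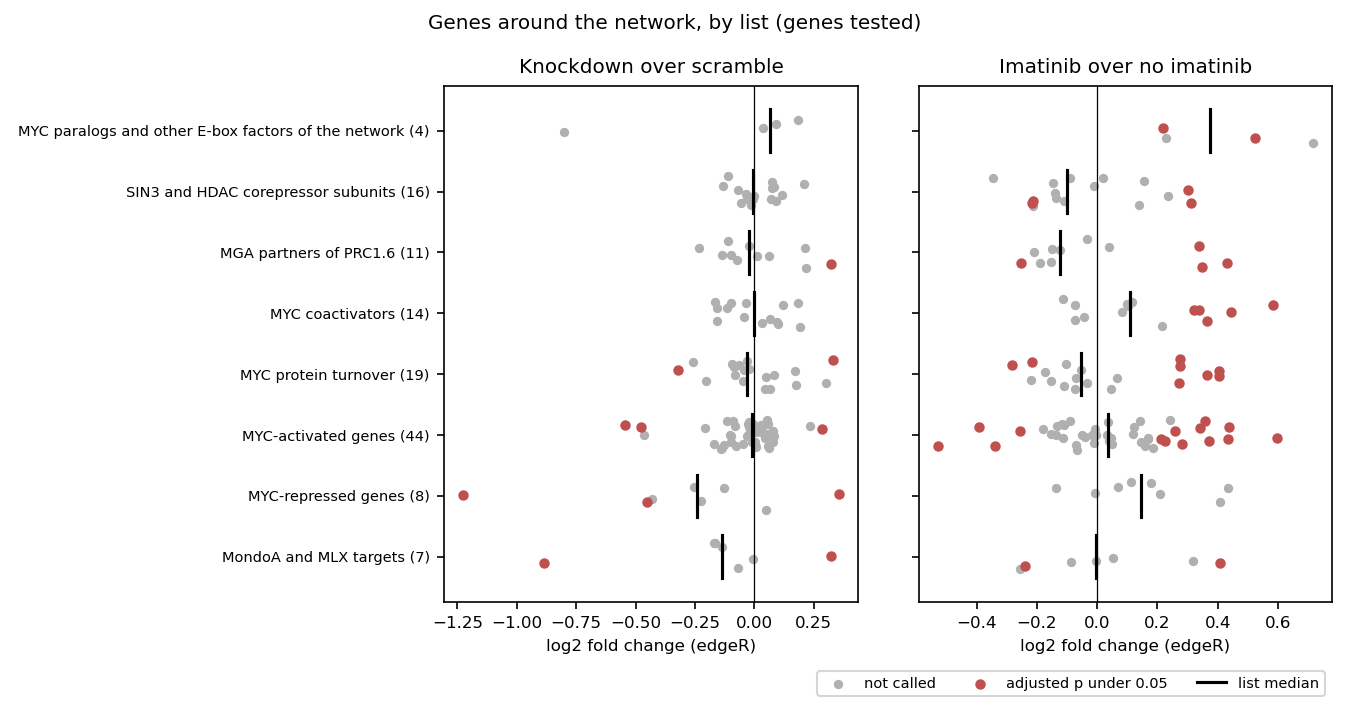
Fitted log2 fold changes (edgeR) of the tested genes of 8 lists around the network, knockdown over scramble on the left and imatinib over no imatinib on the right, with the number tested in brackets and the list median as a black bar. Genes with an adjusted p under 0.05 are red, 11 different genes for knockdown and 39 for imatinib; the vertical position within a list has no meaning.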

How the data were processed

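Total RNA was depleted of ribosomal RNA and made into libraries with a strand-keeping kit, per the labels' protocols; the submitters' processing notes list FastQC, HISAT2, HTSeq 0.6.1 and GRCh38, with no strand setting. Whole-number read counts per gene, deposited by the authors, entered all tests unchanged. The authors' FPKM columns, named so per the file headers, were handled as a score rather than as true FPKM, since 6 genes are negative, and keep their deposited name in the text; the authors divided counts by their total and an exon length, as the deposited values show for the members. They were used only for levels of the members, 1 alternative test and 1 alternative scale of the ratios. The deposited log2 columns were not used. Gene IDs were matched to GENCODE 29 (28329 of 28482). Ratios used TMM factors and a prior count of 2, with exact binomial intervals. The tests were edgeR 4.0.16 (R 4.3.3; quasi-likelihood, additive for both factors, 1 residual and 33.8 prior degrees of freedom, Benjamini-Hochberg over 13296 genes), checked on simulated data, DESeq2 1.42.0, limma 3.58.1 and mgcv 1.9.3 for GC and length trends. Alternatives also changed scaling, filter, prior count and covariate, or left out each library. The members and the lists were chosen with earlier results of these data known. Named genes were the members, TCF7, PVT1, the 3 genes closest to MYC and to the widest-ranging member, and up to 4 called genes per list and factor with the smallest adjusted p (the most abundant where none was called). DMAP1, STUB1, CD3D, CD3E, CD79A and LYZ were named after their values were seen. Some genes that this rule selects are not reported here.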

Additional observations from a re-analysis of the deposited data

How the results depend on the processing

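No member was called for knockdown under any alternative run, but the fit without a term for imatinib called 0 genes in all (818 at an unadjusted p under 0.05), and those that also left out 1 library called 34 to 747, so they say little about the members. For imatinib the count of 1 member, MYC, became 2 with DESeq2 size factors, where MGA was also called (adjusted p = 0.0492), and 0 with the GC and length offsets and in the fit without a term for the other factor, in which edgeR called 0 genes in all (2651 at an unadjusted p under 0.05). With each library left out in that form it was 0 in every fit, of which 3 called 0 genes in all and the one without the scramble library with imatinib called 579; MYC then had a log2 fold change between 0.25 and 0.31 and an adjusted p between 0.0701 and 0.505. Genes of the 8 lists called for knockdown numbered 11, against 18 with the offsets and 5 by DESeq2; those called for imatinib numbered 39, against 9 with the offsets and 19 by DESeq2. Over all genes, edgeR called 949 for knockdown, 1633 with the offsets, 272 by DESeq2 and 195 by limma on FPKM; for imatinib it called 2780, 576 with the offsets, 1003 by DESeq2 and 1094 by limma. Of 45 pair ratios of the members, 24 left their counting interval with the GC and length trend removed and 0 under the other scalings, the lower prior count or FPKM. The difference of MXD4 between imatinib states was 0.45 with total counts and 0.34 with the trend removed. MXD3, at 144 to 176 counts, is limited by depth. No paired analysis was possible because the labels give no replicate numbers that could pair libraries; the additive fit compares within each state of the other factor.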
